A study of Mus musculus with 4 samples.

Results

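The unfolded protein response (UPR) is the signalling system by which a cell adjusts its endoplasmic reticulum (ER) to a load of misfolded protein, and 9 genes that encode its sensors and transcription factors were followed here across all arrays of the series. They were taken from a fixed list of names, which was chosen with earlier results of these data known. They are Ern1 and Ern2, which encode the kinase and RNase sensors IRE1alpha and IRE1beta, and Eif2ak3, which encodes the sensor kinase PERK. Atf6 and Atf6b encode membrane-bound factors that are cut in the Golgi, and Mbtps1 encodes the site-1 protease that cuts them. Xbp1 and Atf4 encode the factors that act below IRE1 and PERK, and Creb3l1 encodes OASIS, a membrane-bound relative of ATF6. All 9 were among the 19938 genes with a probe set of their own, each had 1 probe set, and each was above the expression floor on all 4 arrays.

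Much of this system is controlled after transcription. IRE1 removes a short intron from the Xbp1 mRNA, PERK phosphorylates eIF2alpha and so raises translation of Atf4, and ATF6 is released from its membrane by proteolysis. IRE1beta is largely restricted to mucosal epithelium, and in the intestine it and OASIS are associated with goblet cells. The secretory cells of the crypt, goblet and Paneth cells, depend on XBP1. The arrays gave 1 value for Xbp1, so its spliced and unspliced mRNA were not measured apart, and neither protein amount, phosphorylation nor cleavage was measured.

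The series compared sorted crypt cells of the small intestine of adult mice with and without ZIP7 (gene Slc39a7), which moves zinc out of the ER and Golgi. All mice carried villin-CreERT2, active in intestinal epithelium, and an Lgr5 allele with EGFP and a second CreERT2 (Lgr5-EGFP-ires-CreERT2), and all received tamoxifen for 2 days. Zip7 KO mice were Zip7flox/flox and controls were Zip7flox/+. A fraction labelled Lgr5-Hi and one labelled Lgr5-Med (Lgr5-Mid in the titles) came from each genotype, with 1 array for each of the 4 groups; how many animals entered an array is not in the labels.

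There was no replicate, so no spread within a group and no test exist for any difference below. Differences are given on the log2 scale of the deposited values, beside the same measure over all genes above the floor. The floor on each array was percentile 95 of 1207 odorant, pheromone and trace amine receptor genes, which gut epithelium should not express, and lay between 6.10 and 6.25, whereas the 9 genes lay between 8.0 and 11.18. Levels of different genes come from different probes and are not ranked against each other.

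The labels were checked against the arrays. Slc39a7 differed between Zip7 KO and control by 0.10 under the label Lgr5-Hi and by -0.39 under Lgr5-Med, and no label says whether its probes cover the deleted exons, so this does not check the deletion. Lgr5 ran against the fraction labels, at 7.79 (control) and 7.93 (Zip7 KO) under Lgr5-Hi and at 10.97 and 11.24 under Lgr5-Med. All 10 stem cell markers of the list used were lower in the array labelled Lgr5-Hi in each genotype. Of all genes 56.7% were in controls and 50.7% in Zip7 KO. The labels were kept; an exchange of them in both genotypes would turn the sign of every difference between fractions and of every difference between the genotype differences, and would exchange the names of the genotype comparisons. Xist stood at 11.64 and 11.84 in the control arrays and lay under the floor in both Zip7 KO arrays, in which Kdm5d, Uty and Eif2s3y of the Y chromosome were above it, so sex and genotype cannot be told apart. The epithelial gene Epcam lay between 11.57 and 11.66 on the 4 arrays.

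The first comparison asked how the genes of the UPR sensors differed between the genotypes under the label Lgr5-Hi. Atf6 was the 1 member past 1.5-fold, higher in Zip7 KO by 0.61. Atf4 was higher by 0.28, just past 1.2-fold. The sensor genes Ern1 and Eif2ak3 and the factor Xbp1 were higher by 0.21, 0.11 and 0.13. Ern2, Creb3l1 and Mbtps1 were lower, with differences of -0.16, -0.21 and -0.08.

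As a group 6 of the 9 were higher, against 55.0% of the 11988 genes compared, and 3 were lower, against 45.0%, with a median of 0.11 against 0.02. Past 1.2-fold (0.263 on the log2 scale) 2 were higher, where 10.7% of all genes were, and none was lower, where 8.41% were. Past 1.5-fold (0.585) 1 was higher, where 1.08% of all genes were, and none was past 2-fold higher, where 0.250% were. Under this label all 12 Paneth cell markers and 10 of 14 goblet cell markers were lower in Zip7 KO, with medians of -0.68 and -0.04, and 5 of 12 enterocyte markers were, with a median of 0.02. Creb3l1 was at -0.28 and -0.29 after quantile normalisation and loess, past 1.2-fold lower there. Among all genes past 1.2-fold 56.0% were higher, a share that was 40.5% after quantile normalisation and 41.7% when arrays were centred on the median of expressed genes. Past 1.5-fold the corresponding shares were 53.9%, 42.1% and 41.5%.

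Under the label Lgr5-Med the direction was mostly the other way. Ern2 was lower in Zip7 KO with a difference of -0.43, the 1 member past 1.2-fold there. Xbp1, Eif2ak3, Atf6, Atf6b and Ern1 were lower as well, at -0.20, -0.19, -0.18, -0.18 and -0.15, as was Mbtps1 at -0.09. Creb3l1, at -0.03, was close to 0 and turned to between 0.003 and 0.036 under quantile normalisation, centring or removal of the loess trend on mean level. Atf4, at 0.03, was the 1 member not lower.

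In this comparison 8 of 9 were lower, where 55.8% of the 12243 genes compared were, and 1 was higher, where 44.1% were (59.1% with centring); the median was -0.18 against -0.03. Past 1.2-fold 1 member was lower, where 12.6% of all genes were, and none was higher, where 6.21% were. Among all genes past 1.2-fold 33.0% were higher, which became 60.2% with centring and 43.2% with the loess trend removed. Here all 12 enterocyte markers, all 12 Paneth cell markers, as under Lgr5-Hi, and 13 of 14 goblet cell markers were lower in Zip7 KO, with medians of -0.41, -1.31 and -0.37. The part of these markers' cells in the values of the 9 genes was not tested under either label. In sorted bulk samples fewer cells of a type and less RNA per cell cannot be told apart.

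**Figure D1:**
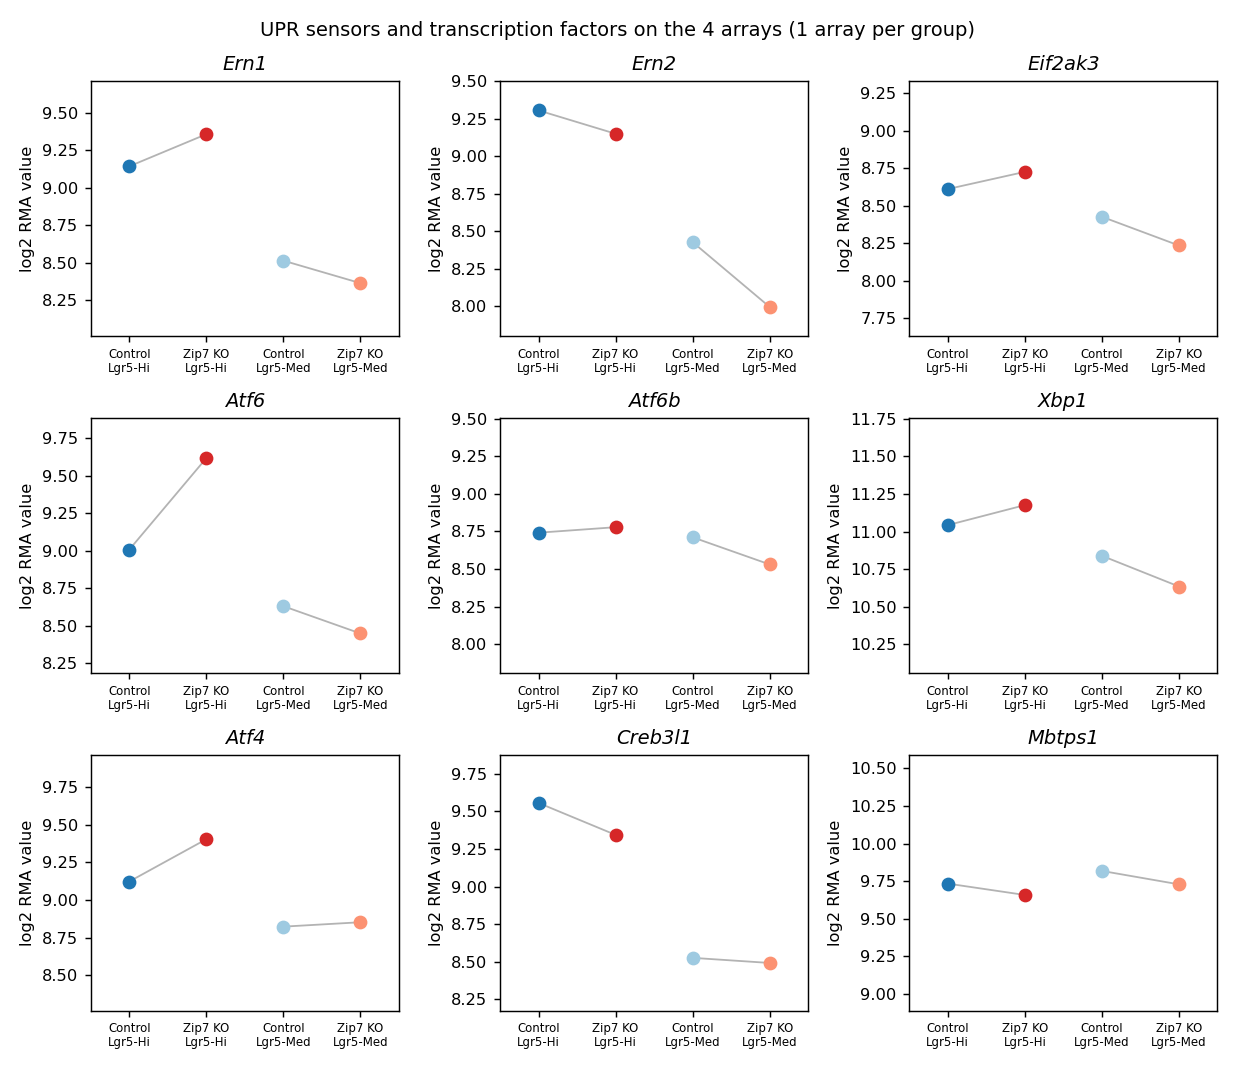
Each panel shows 1 gene, with the deposited log2 RMA value on the vertical axis (all panels span the same range) and the 4 arrays on the horizontal axis, 1 point per array; grey lines join the control and the Zip7 KO array of 1 fraction label. For Atf6 the Zip7 KO array labelled Lgr5-Hi stands at 9.62 and the other 3 lie between 8.45 and 9.01, while Mbtps1 spans 0.16 over all 4 arrays.

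Among the ER stress sensors, Ern1 was measured at 9.14 in the control and 9.36 in the Zip7 KO array labelled Lgr5-Hi, and at 8.51 and 8.36 in those labelled Lgr5-Med. Its Zip7 KO values were thus the highest and the lowest of the 4. Its paralog Ern2 was measured at 9.30 and 9.15 under Lgr5-Hi and at 8.43 and 8.0 under Lgr5-Med. Both Zip7 KO values of Ern2 lay below the control of the same label. Both arrays labelled Lgr5-Med lay below both labelled Lgr5-Hi, as for every member but Mbtps1, and 6.51% of genes had this order of the 4 arrays. The genotype difference of Ern1 exceeded that of Ern2 by 0.37 under Lgr5-Hi and by 0.28 under Lgr5-Med.

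Eif2ak3, the PERK gene, was measured at 8.61 in the control and 8.73 in the Zip7 KO array labelled Lgr5-Hi, and at 8.43 and 8.24 in those labelled Lgr5-Med. Its order over the 4 arrays was that of Ern1, over a range of 0.49 against 0.99. The other kinases of eIF2alpha, which share its target, had genotype differences of 0.36 and -0.14 for Eif2ak1 (the haem-regulated kinase), -0.43 and -0.54 for Eif2ak2 (PKR, an interferon-induced sensor of double-stranded RNA) and 0.01 and -0.12 for Eif2ak4 (GCN2, the amino acid sensor), under Lgr5-Hi and Lgr5-Med in that order. Eif2ak2 was thus past 1.2-fold lower under both labels, and Eif2ak3 past it under neither.

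Atf6 was measured at 9.01 in the control and 9.62 in the Zip7 KO array labelled Lgr5-Hi, and at 8.63 and 8.45 in those labelled Lgr5-Med. The Zip7 KO array labelled Lgr5-Hi stood above the other 3, by 0.61 (1.53-fold) over its control. That difference was between 0.53 and 0.57 under quantile normalisation, centring or loess, and so short of 1.5-fold there. Atf6b, whose product is a weaker activator of the same ER stress elements, was measured at 8.74 and 8.78 under Lgr5-Hi and at 8.71 and 8.53 under Lgr5-Med. Its difference of 0.04 under Lgr5-Hi was smaller than that of Atf6 by 0.57, and it turned to between -0.033 and -0.002 under the same 3 alternatives.

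Mbtps1, whose protease also cuts the SREBP factors of lipid synthesis, was measured at 9.73 in the control and 9.66 in the Zip7 KO array labelled Lgr5-Hi, and at 9.82 and 9.73 in those labelled Lgr5-Med. It had the narrowest range of the 9. Its differences lay between -0.09 and -0.07 in all 4 comparisons of genotypes and fractions, none past 1.2-fold.

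Xbp1 was measured at 11.04 in the control and 11.18 in the Zip7 KO array labelled Lgr5-Hi, and at 10.84 and 10.63 in those labelled Lgr5-Med. Atf4 was measured at 9.12 and 9.40 under Lgr5-Hi and at 8.82 and 8.85 under Lgr5-Med, and was the 1 member whose Zip7 KO array was the higher under both labels. Its 0.28 under Lgr5-Hi exceeded 90.8% of genes, but 1 member in place of 2 was past 1.2-fold higher there under quantile normalisation, centring or loess.

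Creb3l1 was measured at 9.56 in the control and 9.34 in the Zip7 KO array labelled Lgr5-Hi, and at 8.53 and 8.49 in those labelled Lgr5-Med. Both its arrays labelled Lgr5-Hi lay above both labelled Lgr5-Med, as for every member but Mbtps1. The control was above the Zip7 KO array within each label, under Lgr5-Med by a difference whose sign turned with the scaling. Its order of the 4 arrays was that of 6.51% of genes. The other members of its family, membrane-bound factors cut by the same proteases, differed among themselves. Creb3l2, a factor of secretory capacity, was at 0.35 and -0.35 in Zip7 KO against control under Lgr5-Hi and Lgr5-Med. Creb3l3, a liver and intestinal factor of lipid metabolism, was at 0.05 and -0.60, Creb3l4 at -0.42 and -0.29, and Creb3 at 0.10 and -0.31. Creb3 was named for its family after its values were seen.

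The array values of 5 members, Ern1, Eif2ak3, Atf6, Atf6b and Xbp1, had 1 order: Zip7 KO labelled Lgr5-Hi highest, then the control labelled Lgr5-Hi, the control labelled Lgr5-Med, and Zip7 KO labelled Lgr5-Med lowest. Of 12404 genes 9.57% had this order, and with quantile normalisation or centring 4 members and 8.17% or 6.71% of genes had it. Ern2 and Creb3l1 shared another order, led by the control labelled Lgr5-Hi (6.51% of genes), and Atf4 (5.14%) and Mbtps1 (4.35%) had orders of their own. These counts were made after the values were seen. The same 5 were higher in Zip7 KO under Lgr5-Hi and lower under Lgr5-Med, as were 24.6% of genes; under quantile normalisation, centring or loess 4 members were, without Atf6b, and at most 20.6% of genes.

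Subtracting the genotype difference under Lgr5-Med from that under Lgr5-Hi gave a value above 0 for 8 of 9 members, as for 59.9% of genes (39.6% with centring), with a median of 0.28 against 0.05. It was 0.79 for Atf6, 0.36 for Ern1, 0.34 for Xbp1, 0.31 for Eif2ak3 and -0.18 for Creb3l1. Of the 9, 5 were past 1.2-fold higher, where 16.5% of genes were, but 2 were after quantile normalisation or loess and 1 was after centring. Atf6 was the 1 member past 1.5-fold, where 2.34% of genes were. Centring moved the median of all genes in this measure from 0.053 to -0.057, and the higher share among genes past 1.2-fold from 67.4% to 32.6%, against 56.5% with loess, and past 1.5-fold from 83.3% to 47.1%. Atf6 stayed at 0.66 to 0.69 under these 3 alternatives. Values above 0 were not particular to the members. In the same measure 12 of 12 enterocyte, 10 of 12 Paneth and 10 of 14 goblet cell markers were above 0, with medians of 0.44, 0.51 and 0.34. Of enteroendocrine and stem cell markers 5 of 12 and 2 of 10 were, with medians of -0.02 and -0.19. Of the lists described below, 13 of 13 ATF6, 19 of 20 ATF4 and 14 of 17 XBP1 targets were above 0, with medians of 0.73, 0.3 and 0.23. So were 14 of 18 further UPR signalling genes and 9 of 9 basic leucine zipper factors outside the UPR, with medians of 0.14 and 0.17. Of substrates that IRE1alpha cuts, 1 of 4 was, with a median of -0.11.

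**Figure D2:**
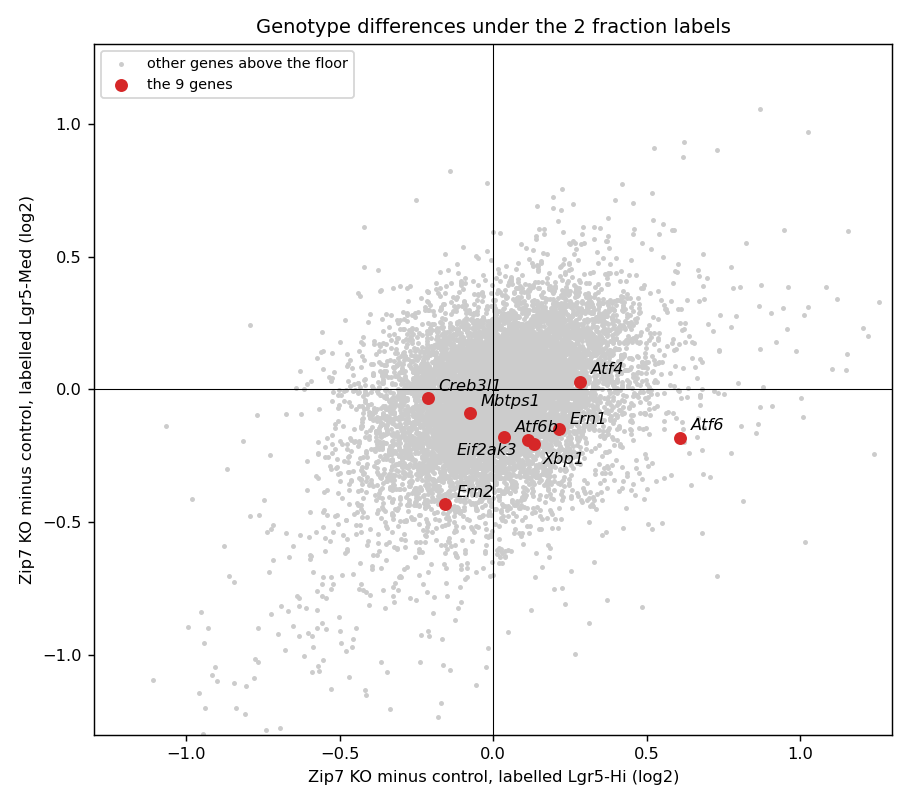
Each point is 1 gene above the floor in both comparisons, with its Zip7 KO minus control difference (log2) under the label Lgr5-Hi on the horizontal axis and under Lgr5-Med on the vertical axis; the 9 genes are red and named, and grey points beyond the axes are not drawn. Atf6 lies to the right of the other 8 at 0.61, and 8 of the 9 lie below the horizontal line at 0.

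The genes that act below these sensors were taken from fixed lists, with earlier results of these data known. Each gene was placed in a single list, although the factors of the UPR share targets. A list median is therefore not the output of a single factor, and the share of each factor was not tested. The 13 listed targets of ATF6, mostly ER chaperones, were all higher in Zip7 KO under Lgr5-Hi, with a median of 0.88, and 12 were past 1.5-fold, where 55.0% and 1.08% of all genes were. The largest difference was that of Derl3, a component of ER-associated degradation, which was measured at 7.34 in the control and 11.06 in the Zip7 KO array. Creld2, an ER stress-inducible factor, was at 10.12 and 11.73, and Hspa5, the chaperone BiP, at 12.48 and 13.09. The differences of Hspa5 and of Atf6 were both 0.61.

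Under Lgr5-Med the same 13 were higher, where 44.1% of all genes were, with a median of 0.25, and 2 were past 1.5-fold, where 0.425% of all genes were higher by that much; of all genes past 1.5-fold 16.8% were higher, and 30.3% with centring. These were Derl3, at 6.88 and 8.56, and Sdf2l1, an ER chaperone cofactor, at 9.03 and 9.62. Hspa5 was at 12.14 and 12.39. Hyou1 and Sel1l, with differences of 0.02 and 0.01, were close to 0, and their signs under other scalings were not tested. Atf6, at 8.63 and 8.45, was not higher there.

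Ern1 and Xbp1 stand above a list of 18 XBP1 targets, 17 of which had a probe set of their own. Under Lgr5-Hi 16 of the 17 were higher in Zip7 KO with a median of 0.25, 7 of them past 1.2-fold and 1, the ubiquitin ligase gene Syvn1, past 1.5-fold at 0.91. Over all genes 55.0% were higher, 10.7% past 1.2-fold and 1.08% past 1.5-fold. Dnajb9, an ER co-chaperone often read as a marker of spliced XBP1, was at 10.03 in the control and 10.42 in Zip7 KO, a difference of 0.39. Edem1, a lectin of ER-associated degradation, differed by 0.50. Under Lgr5-Med 8 of the 17 were higher, near the 44.1% of all genes, the median was -0.01 (0.019 to 0.061 under quantile normalisation, centring or loess), and none was past 1.2-fold higher, where 6.21% of all genes were. There Dnajb9 stood at 9.57 and 9.76, Sec24d, a coat protein of ER export, at 8.77 and 8.44, and Edem2 at 8.22 and 7.93.

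Substrates that IRE1alpha is known to cut directly (regulated IRE1-dependent decay, RIDD) were few. Of 6 listed, 4 were above the floor, and Scara3 and Sparc were not on any array. Bloc1s1, the best known of them, was measured at 10.08 in the control and 9.79 in the Zip7 KO array labelled Lgr5-Hi, and at 10.21 and 10.05 in those labelled Lgr5-Med. The difference of -0.29 was past 1.2-fold lower, where 8.41% of all genes were, as was that of Pdgfrb at -0.28, near the floor at 6.59 and 6.31. Under Lgr5-Med all 4 were lower, where 55.8% of all genes were, and none was past 1.2-fold.

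PERK and ATF4 stand above a list of 21 ATF4 targets. Under Lgr5-Hi 16 of the 20 above the floor were higher in Zip7 KO with a median of 0.29, and 13 were past 1.2-fold higher, where 55.0% and 10.7% of all genes were. Chac1, which degrades glutathione, was at 7.80 in the control and 8.95 in Zip7 KO. Ddit3, which encodes the factor CHOP, was at 8.70 and 9.26. Slc7a11, the cystine transporter, was below the floor in the control and was higher by at least 0.99. Under Lgr5-Med 11 of 19 were higher with a median of 0.07, where 44.1% of all genes were (59.1% with centring), and 4 were past 1.2-fold higher, where 6.21% were. They included Ddit3, at 8.21 and 8.51, and Atf5, a factor of the same family, at 7.19 and 7.50. Ppp1r15a, the phosphatase subunit that reverses PERK signalling and itself a target, was lower, at -0.44.

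Among 18 further genes of UPR signalling 14 were higher under Lgr5-Hi, with a median of 0.10, and 6 under Lgr5-Med, with -0.08, where 55.0% and 44.1% of all genes were. Dnajc3, the ER-induced inhibitor and co-chaperone p58IPK, had the largest difference, at 9.55 and 10.54 under Lgr5-Hi, and was at 9.08 and 9.23 under Lgr5-Med. The median of the 9 sensors and factors, 0.11, was thus nearer to that of these signalling genes than to the 0.88 of the ATF6 targets.

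**Figure D3:**
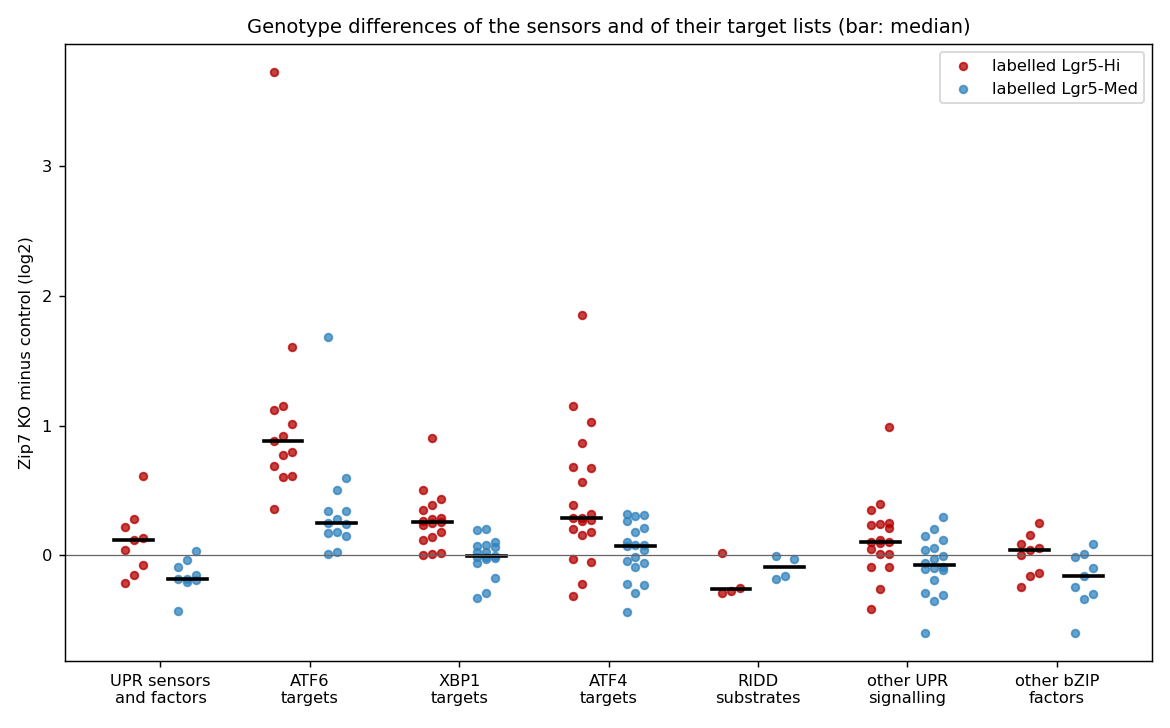
Points are genes above the floor, bars are list medians, and the vertical axis is the Zip7 KO minus control difference (log2), in red for the label Lgr5-Hi and in blue for Lgr5-Med. The ATF6 targets lie at medians of 0.88 and 0.25 and the sensors and factors at 0.11 and -0.18. Each gene is drawn in a single list, although the factors share targets.

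Promoter sequences of the ATF6 targets are shown because ATF6 and XBP1 bind known letters there. The ER stress element (ERSE) is CCAAT, then 9 bases of any kind, then CCACG. Its variant ERSE-II is ATTGG, then 1 base, then CCACG. Both hold CCACG and the CCAAT box on one strand or the other, so these searches overlap. Windows of 250 bases before to 50 after the gene start were taken from RefSeq (build GRCm38.p6) and searched on both strands. An ERSE was found in 6 of the 11 ATF6 targets with a window and in 0.119% of 32851 windows, and an ERSE-II in 2 of the 11 and in 0.0365% of windows. The stretches below are given on the strand of the gene with the match in capitals.
Hspa5 (chr2:34772005-34772063, plus strand): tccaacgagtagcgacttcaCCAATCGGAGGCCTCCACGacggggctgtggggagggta
Derl3 (chr10:75893222-75893280, plus strand): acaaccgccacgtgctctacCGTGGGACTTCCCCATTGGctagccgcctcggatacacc
Creld2 (chr15:88819500-88819558, plus strand): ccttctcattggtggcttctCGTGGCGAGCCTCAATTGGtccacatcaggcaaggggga
Hsp90b1 (chr10:86705618-86705676, minus strand): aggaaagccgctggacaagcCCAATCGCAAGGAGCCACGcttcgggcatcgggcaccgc
Herpud1 (chr8:94386357-94386407, plus strand): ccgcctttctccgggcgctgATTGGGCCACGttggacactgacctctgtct
In Derl3 and Creld2 the match is on the other strand and so reads from CGTGG to ATTGG. Derl3 and Creld2 had the largest differences of this list under Lgr5-Hi, 3.73 and 1.61. Hspa5, Hsp90b1 and Herpud1, the last 2 named for their sequences, differed by 0.61, 0.69 and 1.01. Calr and Pdia6, also with an ERSE, and Dnajb11, with an ERSE-II, differed by 0.35, 0.78 and 0.61. Pdia4, Sdf2l1 and Sel1l, with a window but neither element, differed by 1.12, 1.15 and 0.88. A link between these letters and the size of a difference was not tested.

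The regulators themselves were searched in the same way, and 6 of the 9 had a window (Ern1, Eif2ak3, Atf6b, Xbp1, Atf4 and Mbtps1). No ERSE or ERSE-II was found in these windows, nor the XBP1 element TGACGTGG (0.676% of all windows), whose other strand holds CCACG, nor the cyclic AMP element TGACGTCA (1.79%). A CCAAT box was found in 3 of the 6 and in 37.4% of windows, and CCACG in 3 of the 6 and in 32.8%. All 11 ATF6 targets with a window held both. The bases before the gene start of 2 members are shown with CCAAT and CCACG, on either strand, in capitals, since Atf4 holds both sets of letters at another spacing and Eif2ak3 holds 6 CCAAT boxes.
Atf4 (chr15:80254934-80255183, plus strand): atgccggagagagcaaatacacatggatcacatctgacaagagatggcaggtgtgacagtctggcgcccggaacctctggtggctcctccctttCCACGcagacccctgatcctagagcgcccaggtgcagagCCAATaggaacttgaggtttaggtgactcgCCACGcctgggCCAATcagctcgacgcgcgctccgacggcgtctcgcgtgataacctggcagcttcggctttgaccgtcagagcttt
Eif2ak3 (chr6:70844265-70844514, plus strand): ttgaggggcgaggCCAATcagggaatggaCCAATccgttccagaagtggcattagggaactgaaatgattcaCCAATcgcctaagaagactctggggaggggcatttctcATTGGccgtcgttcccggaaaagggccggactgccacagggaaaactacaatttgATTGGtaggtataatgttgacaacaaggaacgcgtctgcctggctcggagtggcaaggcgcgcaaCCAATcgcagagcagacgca
A match describes letters and does not show binding, and no match says only that these letters are not in these windows. Atf4, the member with both sets of letters, differed by 0.28 and 0.03 between genotypes, and Eif2ak3 by 0.11 and -0.19.

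The remaining comparisons set the fraction labels against each other within a genotype. In controls 8 of 9 members were higher under the label Lgr5-Hi, where 43.3% of the 12248 genes compared were (55.5% with centring), with a median of 0.30 against -0.04. Creb3l1 and Ern2 were higher by 1.03 and 0.88, and Ern1 by 0.63, and these 3 were past 1.5-fold, where 2.30% of genes were, and Creb3l1 was past 2-fold, where 0.669% were. Past 1.2-fold 5 members were higher, where 10.6% of genes were. The higher share among all genes was 36.7% past 1.2-fold (56.3% with centring, 48.9% with loess), 42.3% past 1.5-fold (57.3% with centring) and 56.2% past 2-fold (68.4% and 66.7%). The ATF6 gene was higher by 0.38, Atf4 by 0.30, Xbp1 by 0.20, Eif2ak3 by 0.18 and Atf6b by 0.03, and Mbtps1 was lower, at -0.08.

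In Zip7 KO 8 of 9 were again higher under Lgr5-Hi, where 49.3% of the 12114 genes compared were, with a median of 0.55. The comparisons share no array, but whether their fractions came from the same mice is not in the labels. Atf6 was higher by 1.17, Ern2 by 1.15, Ern1 by 0.99 and Creb3l1 by 0.85, and these 4 were past 1.5-fold, where 5.90% of genes were. Past 1.2-fold 7 were higher, where 18.7% of genes were, and past 2-fold 2, where 1.87% were. Atf4 was higher by 0.55, Xbp1 by 0.54, Eif2ak3 by 0.49 and Atf6b by 0.25.

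Goblet cell markers differed between the fraction labels in the same direction. In controls 13 of 14 were higher under Lgr5-Hi with a median of 0.97, and in Zip7 KO 13 of 14 with a median of 1.23. Of all genes 43.3% were higher in controls and 49.3% in Zip7 KO. None was below the floor on all arrays, and their mean level was 9.98 and 9.11 in the control arrays labelled Lgr5-Hi and Lgr5-Med and 9.90 and 8.71 in the Zip7 KO arrays. Muc2, the main intestinal mucin, was higher by 1.02 in controls and 1.81 in Zip7 KO, and Spdef, a goblet cell transcription factor, by 0.85 and 0.59. Enteroendocrine markers were higher in 12 of 12 cases in each genotype, with medians of 2.57 and 2.54, and Paneth cell markers in 11 of 12, with medians of 0.81 and 1.24. Enterocyte markers were higher in 6 of 12 in controls and in 11 of 12 in Zip7 KO, with a median of 0.28 in Zip7 KO. Stem cell markers were lower in 10 of 10, with medians of -1.23 and -1.44, where 56.7% and 50.7% of all genes were. The part of these cell types in the values of Ern2, Creb3l1 and the other members was not tested.

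Cells outside the epithelium were also checked. Lymphocyte and myeloid markers had a mean level of 7.55 and 7.84 in the control arrays labelled Lgr5-Hi and Lgr5-Med and of 6.83 and 6.92 in the Zip7 KO arrays. Of these markers 11 of 12 were lower in Zip7 KO under each label, where 45.0% and 55.8% of all genes were. Their medians were -0.77 and -0.94. Their part in the genotype differences was not tested. Of the plasma and B cell markers, from cells rich in XBP1, 6 of the 8 measured were below the floor on all arrays, among them Jchain, Tnfrsf17 and Irf4. Of the stromal and endothelial markers 7 of 12 were, among them Pecam1, Pdgfra and Dcn. The collagen genes Col1a1, Col1a2 and Col3a1 and the filament gene Vim were above the floor on all 4 arrays, and Acta2 on 3. Vim, at 10.15 and 8.05 in the control arrays labelled Lgr5-Hi and Lgr5-Med and at 9.97 and 8.23 in the Zip7 KO arrays, differed between the fraction labels by 2.10 and 1.74. The other stromal markers above the floor did not share this size. Col1a1, Col1a2, Col3a1 and Acta2 differed by 0.17, 0.14, 0.33 and 0.03 in controls and by -0.08, 0.02, -0.05 and -0.17 in Zip7 KO. The part of stromal cells in the fraction differences was not tested.

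**Figure D4:**
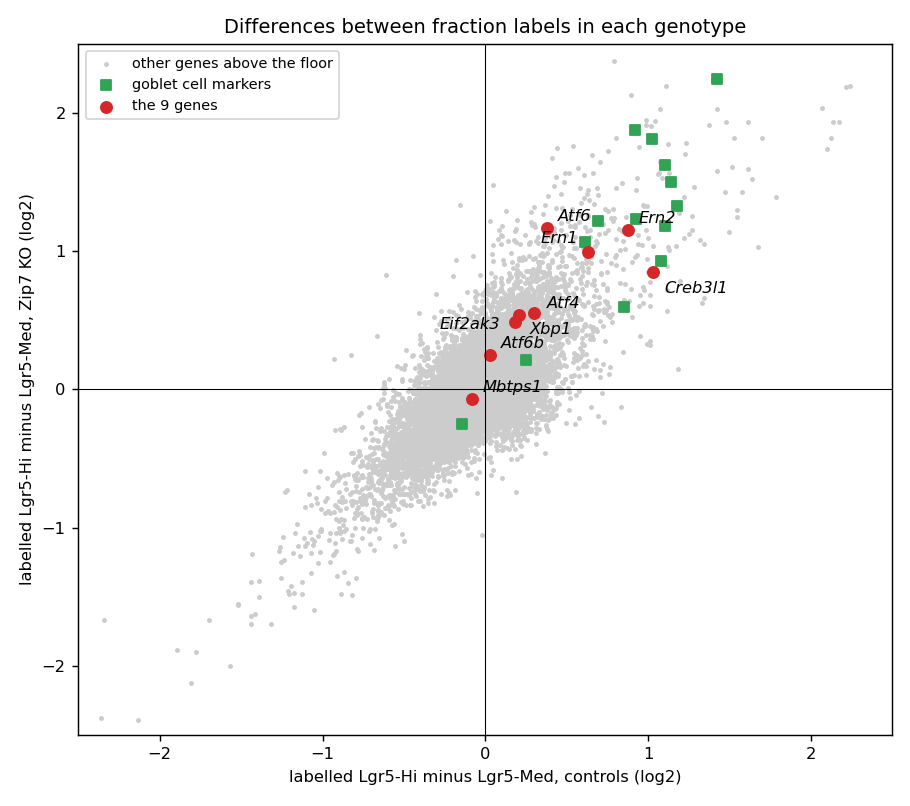
Each point is 1 gene, with the difference between the labels Lgr5-Hi and Lgr5-Med (log2) in controls on the horizontal axis and in Zip7 KO on the vertical axis; the 9 genes are red and named, goblet cell markers are green squares, other genes above the floor are grey, and points beyond the axes are not drawn. Ern2 (0.88 and 1.15), Creb3l1 (1.03 and 0.85) and Ern1 (0.63 and 0.99) lie among the goblet cell markers, and Mbtps1 lies near 0 on both axes. Paneth cell markers, with medians of 0.81 and 1.24, are not marked apart from the grey points.

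Genes whose 4 values were most like those of a member were found by the root mean square distance between values centred on each gene's mean, among 11292 other genes above the floor on all 4 arrays. For Ern2, which had the widest range of the 9 (1.31), they were the potassium channel gene Kcnk6 at a distance of 0.017, the malic enzyme gene Me1 at 0.026 and Aplp1 at 0.034. For Xbp1 they were Arrdc4 at 0.009, the DNA dioxygenase gene Tet3 at 0.015 and the semaphorin gene Sema4a at 0.017. The likeness rests on 4 arrays and is a description.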

How the data were processed

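The authors deposited 1 log2 value for each probe set and array; the submitters' processing notes name RMA, and neither its version nor which arrays entered it together is stated in the sources used. The log base was taken from the values, which lay between 3.08 and 14.6 with array medians of 6.34 to 6.45. All 4 columns were used and 0 left out.

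Of 35557 probe sets 21789 had 1 gene symbol in the platform annotation, 1621 had several and 12147 were not listed; the first kind was used, with the probe set of the highest mean per gene. All 9 members matched the RefSeq table (GRCm38.p6) by Entrez ID. Genes were compared where 1 or more of the arrays involved exceeded the floor. Differences were subtractions of deposited values, counted past 1.2-fold, 1.5-fold and 2-fold, and no p-value was computed. Where the text says at least, the gene was below the floor on 1 array and the floor stood in for that value. Counts and medians used the deposited values without this step. The number of arrays limits the precision.

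Alternatives were quantile normalisation, centring, a loess trend (fraction 0.3), the mean of probe sets, and a floor at percentile 99 or none. A difference or median was taken as moved if it shifted by more than the SD of all genes' differences. Counts were judged by the ratio of the larger count to the smaller. Named genes were all members, Hspa5, Dnajb9 and Ddit3, and the 2 largest genotype differences per list and fraction label, plus genes described as families. The members and lists were chosen with earlier results of these data known. Python 3.11.15, pandas 2.3.3 and statsmodels 0.14.6 were used. The counting past 2-fold was tested on simulated data, and the counting past 1.2-fold and 1.5-fold was not.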

Additional observations from a re-analysis of the deposited data

Results flagged for a closer look

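The genotype difference had opposite signs under the labels Lgr5-Hi and Lgr5-Med for 5 of the 9 sensors and factors. The share of all genes higher under Lgr5-Hi and lower under Lgr5-Med was 24.6%, and 4 members were so under quantile normalisation, centring or loess. The first minus the second was 0.36 for Ern1, 0.31 for Eif2ak3, 0.79 for Atf6, 0.22 for Atf6b and 0.34 for Xbp1, each higher in Zip7 KO under Lgr5-Hi and lower under Lgr5-Med. With 1 array per group these differences were not tested, and the sign of Atf6b under Lgr5-Hi turned with the scaling.

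Opposite signs were also found for other genes named in the text. The values were 0.70 for Creb3l2, 0.65 for Creb3l3, 0.53 for Edem1, 0.41 for Edem2, 0.50 for Eif2ak1, 0.76 for Sec24d, 0.97 for Syvn1, 0.41 for Creb3, 0.13 for Eif2ak4, 0.10 for Nfya, 0.27 for Nfyc and 0.49 for Slc39a7, also not tested. For the stromal marker Vim, lower in Zip7 KO under Lgr5-Hi and higher under Lgr5-Med, the value was -0.36. Col3a1, Col1a1, Acta2 and Col1a2 had the same signs as Vim, with values of -0.38, -0.25, -0.2 and -0.12. The differences of Edem1, Syvn1 and Nfyc under Lgr5-Med, -0.03, -0.06 and -0.03, were close to 0, as was that of Nfya, at 9.71 and 9.70.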

How the results depend on the processing

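No paired analysis was possible because each group has 1 array and the labels carry no replicate numbers; for the same reason no array could be left out. The 9 members are above every floor tried and have 1 probe set each, so the floor and the mean of probe sets did not alter their values. Under quantile normalisation, centring and loess no member value shifted by more than 0.14, and the medians over the members kept their direction in all 5 measures. Their sizes were smaller in 3 of these: 0.048 to 0.075 for the genotypes under Lgr5-Hi (0.11 as reported), -0.149 to -0.111 under Lgr5-Med (-0.18) and 0.145 to 0.2 for the difference of both (0.28). The number of members higher in Zip7 KO under Lgr5-Med was 1 as reported and 2 under each of these 3 alternatives, by Creb3l1. Of 270 member values under alternatives 9 changed sign, those of Atf6b under Lgr5-Hi, Creb3l1 under Lgr5-Med and Mbtps1 in the difference of the genotype differences, all under 0.04 in size as reported. In that last measure the genes past 2-fold higher numbered 40 as reported, 16 with centring and 24 with loess, and those lower numbered 4 as reported, 8 with centring and 2 with the floor at percentile 99. Values near 1.2-fold or 1.5-fold lie within the shift that scaling makes.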

Other observations

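Basic leucine zipper factors outside the UPR, relatives of ATF4 and XBP1, were followed as a list of 11, of which 9 were above the floor. Under Lgr5-Hi 6 were higher in Zip7 KO, where 55.0% of all genes were, with a median of 0.04 (-0.02 after quantile normalisation and -0.037 with loess). None was past 1.2-fold, where 10.7% of all genes were higher and 8.41% lower. Under Lgr5-Med 7 were lower with a median of -0.16, where 55.8% of all genes were. Past 1.2-fold 3 were lower there, where 12.6% of all genes were, and past 1.5-fold 1 was, where 2.10% were. Nfil3, a circadian and immune repressor, was at 8.12 in the control and 7.52 in the Zip7 KO array there, and Jund, an AP-1 subunit, at 9.74 and 9.40.

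NF-Y, the trimer that binds the CCAAT part of the ER stress element, was measured through its 3 subunit genes, which were named after their values were seen. Nfya, Nfyb and Nfyc differed between genotypes by 0.10, 0.01 and 0.24 under Lgr5-Hi and under Lgr5-Med stood at 9.71 and 9.70, 7.57 and 7.69, and 9.54 and 9.51 in control and Zip7 KO, with no difference past 1.2-fold.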
